A study of Mus musculus with 4 samples.

Results

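C1q macrophages of the mouse submandibular gland were taken as the cells whose summed count of C1qa, C1qb and C1qc was at least 8 UMIs (unique molecular identifiers, the tags by which captured transcripts are counted). Such a cell also had at least 1 UMI of Csf1r, at most 1 UMI of the T cell receptor subunits Cd3d, Cd3e and Cd3g together, and 0 UMIs of the endothelial cadherin Cdh5. The members were thus selected on measured UMI counts of 8 genes, so the levels of these genes are given as a description and were not tested. It found 909 cells among 39843 that held at least 500 UMIs and 300 genes and at most 15% mitochondrial UMIs. The ligated library gave 481 of them, and mock 1, mock 2 and mock 3 gave 51, 170 and 207.

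Submandibular glands, taken out together with the sublingual ones, came from female C57BL6/J mice. In the ligated group a metal clip stayed for 14 days on the main ducts of the sublingual and submandibular glands, and in mock surgery the ducts were found but not clipped. All 4 suspensions were depleted with antibodies and magnetic beads of cells carrying EpCAM, an epithelial surface protein, or Ter119, a red blood cell surface protein, and then of dead cells. The ligated group had 1 library and the mock group 3, and nothing in the labels says whether a library was 1 animal or a pool. The p-values therefore measure only the spread between the mock libraries, which may be technical, and the test takes the 1 ligated value to have the same spread.

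Tissue macrophages depend on the receptor Csf1r and its ligands Csf1 and Il34, engulf dying cells and debris, and digest them in lysosomes. C1q, built from the products of C1qa, C1qb and C1qc, is the recognition subunit of the classical complement pathway and is made mainly by macrophages. Many of these cells also load peptides onto MHC class II molecules for CD4 T cells, under the control of the transactivator Ciita, which is recruited to a set of conserved boxes in MHC class II promoters.

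Ligated members held 4363427 UMIs and those of mock 1, 2 and 3 held 461720, 1300540 and 1247705, at medians of 7454, 7207, 6417 and 4555 UMIs per cell. By their headers, mock 2 and mock 3 were counted with Cell Ranger 7.0.0, but mock 1 with 6.0.1, like the ligated sample. Genes with over 100 kb of intron stood a median of 0.72 (log2) higher in the members of mock 2 and 3 than in those of mock 1, and genes with up to 1 kb of intron -0.13. The members of mock 2 and mock 3 were the most alike, with a chi-square per degree of freedom of 2.49 over genes, against 7.88 to 8.94 for mock 1 with either and 40.3 to 56.2 for the ligated library with any mock library. Libraries shared between 11 and 61 cell barcodes per pair, and no barcode was that of a member in both libraries of a pair. In 144 of the 481 ligated members (29.9%) more than 5 UMIs came from markers of fibroblasts, endothelium, mural cells, T, NK or B lymphocytes, epithelium or glia, against 0 of 51, 9 of 170 (5.29%) and 13 of 207 (6.28%) in the mock libraries. These mixed cells had a median of 12941 UMIs in the ligated library, against 6243 in its other members. Droplets holding 2 cells were called with Scrublet, which marked 5.55 and 1.63% of the cells of the ligated library and mock 1 but 0 cells in mock 2 and mock 3, where no doublet call was thus to be had, and 20 members, all ligated. No member was removed for this, and results that depend on mixed cells are given with and without them.

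The marker genes of the label were present in every library. Levels are given as CPM, the counts-per-million scale of UMIs summed over the members, here with the TMM factor. C1qa stood at 7048 CPM in the ligated library and at 6459, 6380 and 6153 in mock 1, 2 and 3. C1qb stood at 5729 against 5532, 6340 and 6284, and C1qc at 3795 against 3688, 3751 and 3792. These 3 genes chose the members, so nothing is read from their levels. Ms4a7, a tetraspan membrane protein of macrophages, stood at 1919 CPM against 1612, 1110 and 1234. Cx3cr1, the receptor for fractalkine, stood at 726 CPM against 1119, 1023 and 894, and the lysosomal protease Ctss at 4210 against 4119, 4894 and 5016. Ms4a7 was above and Cx3cr1 below every mock library, Ctss lay within their range, and edgeR's quasi-likelihood test called none of the 3 (adjusted p = 0.52, 0.537 and 0.802).

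**Figure D1:**
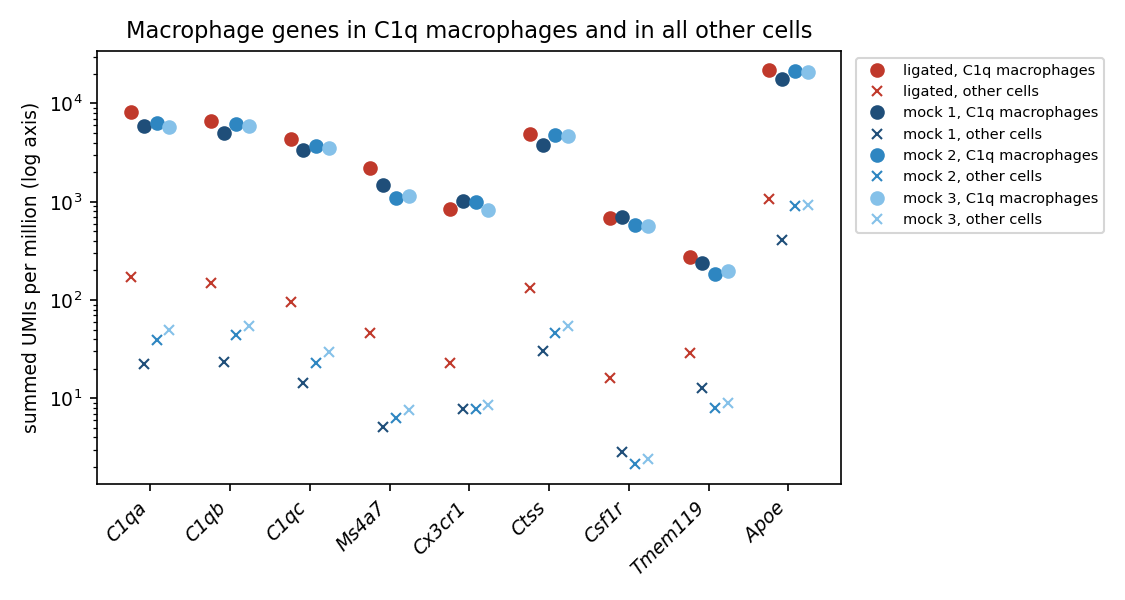
Summed UMIs as CPM (log axis, no TMM factor) of 9 macrophage genes in C1q macrophages (circles) and in all other filtered cells (crosses) of each library, red for ligated and blue for mock 1, 2 and 3. In every library the circles of the C1q genes lie far above the crosses, and the ligated crosses of the C1q genes lie above the mock crosses, at 174 against 22.1, 39 and 49.5 for C1qa.

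Set against all other cells of the same library, the C1qa level of the members was 47.0 times as high in the ligated library and 267, 160 and 115 times as high in the mock libraries. The other ligated cells also held more C1qa: 6.43% of the other leukocytes there, that is cells with a UMI of Ptprc, held C1qa after thinning to 1000 UMIs per cell, against 0.896, 1.11 and 2.22% in the mock libraries. Free macrophage RNA and unselected macrophages could both give such UMIs, and their part was not tested. Few cells lay near the limit on C1q. Of the cells passing every other limit of the gate, 143 had 0 or 1 C1q UMI, 32 had 2 to 7, just outside the limit, 52 had 8 to 15, just inside it, and 857 had 16 or more. The 52 just inside had medians of 11, 10.5, 12.5 and 10 C1q UMIs in the ligated library and mock 1, 2 and 3, against 156.5, 121, 116 and 78.5 in the cells with 16 or more.

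Within macrophages as a class, some genes that in the brain mark microglia were frequent in the members and others rare. Tmem119, a membrane protein, was found in 24.7% of the thinned ligated members against 22, 19.2 and 16.8%, and in 0.0653 to 1.20% of other leukocytes. The lipid-binding receptor Trem2 was found in 20.4% against 22, 25.0 and 26.9%, and the lipid carrier Apoe in 98.1% against 96.0, 98.7 and 99.0%, where other leukocytes held Apoe in 23.9% against 6.47, 7.05 and 8.1%. P2ry12, a purine receptor of microglia, was found in only 2.55% against 0, 5.77 and 6.6%. Genes of perivascular and long-lived resident macrophages were close to absent. Lyve1, a hyaluronan receptor, and Timd4, a receptor for exposed phosphatidylserine, were at 0 UMIs in all 909 members, which in the 470 thinned ligated members limits the share with a UMI to 0.638% (3 counts of the total) but does not limit the share that expresses them. The folate receptor Folr2 had 6 UMIs in the ligated members and 0, 1 and 1 in mock 1, 2 and 3, and the haemoglobin scavenger receptor Cd163 had 1, 0, 1 and 1. Mrc1, the mannose receptor, was found in 2.34% against 6, 3.21 and 1.52% of thinned members. Of the 5 monocyte markers, 3 were at 0 UMIs in each mock library, Plac8 and Chil3 among them in all 3, but none was at 0 in the ligated members. Plac8 had 68 UMIs there, in 3.53% of the ligated members before thinning. The 5 markers summed to 50.2 CPM in ligated members and 165, 39.4 and 22.5 CPM in mock 1, 2 and 3, where CPM of marker lists are without the TMM factor. Ccr2 alone gave 163 CPM of the sum in mock 1. Retnla, a secreted resistin-like protein, gave 798 UMIs in mock 1, all in 1 of its 51 members (1.96%), and stood at 1729 CPM there against 0 in mock 2 and 3.

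C1q macrophages were 3.62% of the filtered cells of the ligated library (95% exact Clopper-Pearson interval 3.30 to 3.95%) and 1.11% (0.829 to 1.46%), 1.84% (1.57 to 2.13%) and 1.63% (1.42 to 1.87%) of those of mock 1, 2 and 3. The intervals cover counting error only. The ligated share lay above every mock share, at 2.37 times their mean of 1.53% ± 0.374 (SD, n = 3). Of 1 library against 3, an exact permutation test cannot give a p below 0.25, so no test was made. Among cells with a UMI of Ptprc, the pan-leukocyte phosphatase CD45, the ligated share was 6.22% (5.66 to 6.83%) and the mock shares 3.64, 7.25 and 5.99%, a mean of 5.63% ± 1.83 (SD, n = 3). The ligated value lay inside that range: C1q macrophages were more frequent among all cells but not among cells with a Ptprc UMI. Members without such a UMI are left out here: 415 of 481 ligated members had one, against 38 of 51, 120 of 170 and 147 of 207 in mock 1, 2 and 3. Cells with Ptprc were 6668 of 13304 in the ligated library and 1045 of 4589, 1655 of 9251 and 2454 of 12699 in the mock libraries. Of the cells that passed the gate in all but C1q, the members were 77.3% in the ligated library (73.8 to 80.6%) and 83.6, 95 and 93.2% in the mock libraries, since 116 ligated cells had Csf1r and at most 1 C1q UMI against 9, 4 and 14. Cells sorted by beads need not survive or be captured in proportion to their number in the gland.

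Haemoglobin transcripts were found in fewer ligated than mock members. At least 10 UMIs of the erythroid markers (Hba-a1, Hba-a2, Hbb-bs, Hbb-bt and Alas2, the first enzyme of haem synthesis in red cell precursors) were found in 30 of 481 ligated members (6.24%, exact interval 4.25 to 8.78%). In the mock libraries they were found in 15 of 51 members (29.4%, 17.5 to 43.8%), 33 of 170 (19.4%, 13.8 to 26.2%) and 49 of 207 (23.7%, 18.1 to 30.1%), a mean of 24.2% ± 5.02 (SD, n = 3). Erythroid UMIs made up 1.72% of all UMIs of the ligated members and 17.9, 11.4 and 14.7% of those of the mock members. In other leukocytes of the same libraries the share with at least 10 such UMIs was 0.464% in the ligated library and 0.794, 0.391 and 0.780% in the mock libraries. In the remaining cells it was 0.898% against 2.01, 1.47 and 1.67%. A high share was thus seen in C1q macrophages and not in the other cells of the same droplet runs, and the ligated share of members lay below all 3 mock shares.

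**Figure D2:**
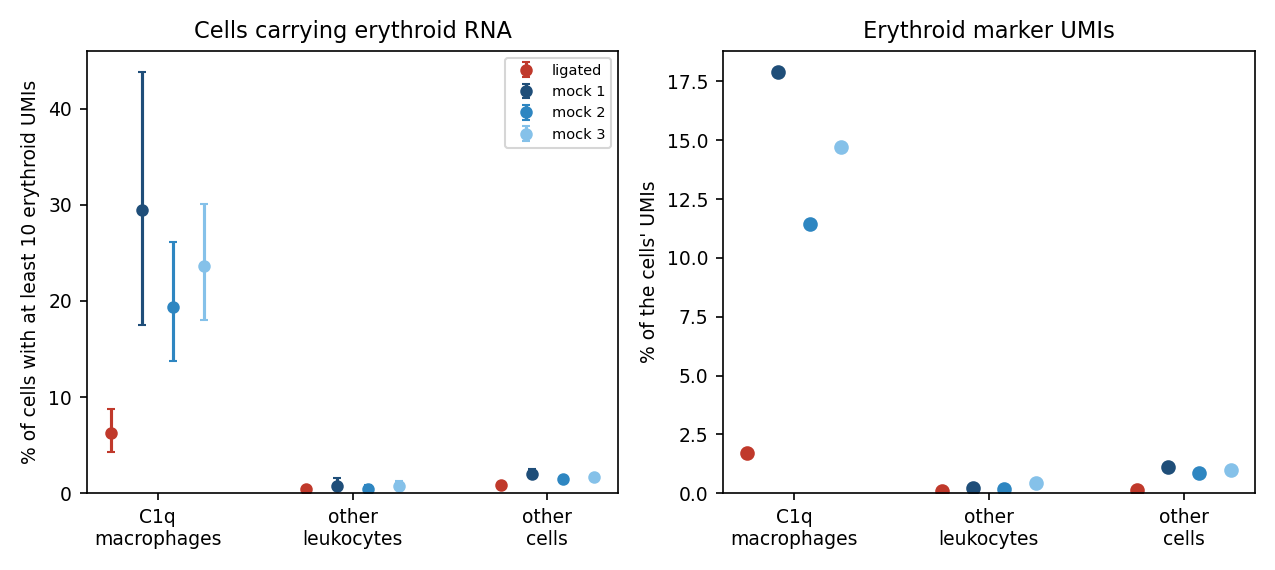
Left, percent of cells with at least 10 UMIs of 5 erythroid markers, with exact 95% binomial intervals. Right, these UMIs as a percent of all UMIs of the cells. Each point is 1 library (red ligated, blue mock). The 3 mock points of the C1q macrophages lie between 19.4 and 29.4% of cells, the ligated point at 6.24%, and all points of other leukocytes and other cells at or below 2.01%.

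In the members that carried it, haemoglobin was abundant. Its median share of a carrying cell's UMIs was 46.0, 31.9 and 31.7% in mock 1, 2 and 3 and 7.70% in the ligated library, and the highest was 89.7%, in mock 3. Carrying cells held further red cell transcripts, given here as CPM of the UMIs other than erythroid ones. Bpgm, which makes the red cell metabolite 2,3-bisphosphoglycerate, stood at 832, 643 and 649 in the carrying mock members and 230 in the ligated ones, against 4.17 to 12.5 in the others. Alas2 had 0 UMIs in every non-carrying member, as it is 1 of the markers that define them. C1qa, from the gate, was high in both kinds of member: it stood at 5056, 6262 and 6553 in carrying mock members and 8432, 7311 and 6724 in non-carrying ones, and at 7544 and 8326 in the ligated library. Genes of haem and iron recycling were not higher in the carriers of every library. Hmox1, haem oxygenase 1, stood at 50.2, 23.1 and 37.4 in carrying and 62.6, 48.3 and 28.2 in non-carrying members of mock 1, 2 and 3, and at 83.5 and 59.9 in the ligated ones, so it was higher in the carriers of 2 of 4 libraries. Slc40a1, the iron exporter ferroportin, had 0 UMIs in the carriers of all 4 libraries, and Spic, a factor of iron-recycling macrophages, 0 to 1 UMI. Whether these transcripts were inside the macrophages, in red cells bound to them or in the same droplet was not tested.

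Across all genes, 2 of 9516 tested (0.021%) passed edgeR's test at an adjusted p of 0.05, 1 in each direction. At an unadjusted p of 0.05, 959 genes passed, 340 of them higher in the ligated members, and DESeq2 called 53. Hbb-bs (ENSMUSG00000052305, mm10 chromosome 7, 103826534 to 103828096), an adult beta-globin, fell from 110440, 71674 and 95391 CPM in mock 1, 2 and 3 to 7273 CPM, a log2 fold change of -3.67 ± 0.27 (SE, adjusted p = 0.0294). Without the members with at least 10 erythroid UMIs it was -0.93 and no longer passed (adjusted p = 0.534). Hbb-bs is 1 of the markers that define those members, so its difference was bound to shrink without them. Without mock 3 (adjusted p = 0.106) or without Scrublet calls (adjusted p = 0.0537) Hbb-bs did not pass either, at folds as large as before (-3.65 and -3.67). Hbb-bt, the second adult beta-globin, stood at 1181 CPM against 19964, 11236 and 13849, with the same log2 fold change of -3.67 ± 0.37 (adjusted p = 0.0725). The 2 genes are near-identical, and the authors' counting could split their reads. Both also stood lower in the other ligated cells, outside the members. There Hbb-bs was at 593 CPM against 5284, 4096 and 5059 in mock 1, 2 and 3, and Hbb-bt at 70.3 against 720, 572 and 741. Bgn (mm10 chromosome X, 73483602 to 73495933), which encodes the matrix proteoglycan biglycan, rose to 242 CPM from 0, 1.57 and 3.47, a log2 fold change of 6.82 ± 0.50 (adjusted p = 0.0294). Bgn stood higher in the other ligated cells, at 919 CPM, than in the ligated members. The 6 fibroblast markers summed to 1476 CPM in ligated members and 26.0, 17.8 and 185 CPM in mock members, with Col3a1 and Pdgfra at 0 in mock 1 and Lum and Pdgfra at 0 in mock 2. Without the members that held other-class or erythroid UMIs, the list stood at 109 CPM against 20.9, 1.34 and 6.05, and Bgn at 4.33 no longer passed (adjusted p = 0.193). It did not pass without mock 2 (adjusted p = 0.0666), without mock 3 (adjusted p = 0.133) or without Scrublet calls (adjusted p = 0.0537) either.

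MHC class II genes stood lower together in the ligated members. H2-Eb1, the beta chain of the I-E class, stood at 4120 CPM in the ligated members and at 8142, 11113 and 11059 in mock 1, 2 and 3. Its log2 fold change was -1.29 ± 0.21 (SE, adjusted p = 0.15), and the ligated value was below every mock value. H2-Ab1, the I-A beta chain, stood at 4086 CPM against 8009, 9980 and 9869 (log2 fold change -1.18 ± 0.17, adjusted p = 0.122), and its partner H2-Aa at 4628 against 6945, 9466 and 9457 (-0.90 ± 0.21, adjusted p = 0.343). Cd74, the invariant chain that guards the peptide groove, stood at 15446 CPM against 21401, 32563 and 33223 (-0.91 ± 0.25, adjusted p = 0.406). H2-DMb1, of the complex that exchanges the groove's placeholder for peptide, stood at 263 CPM against 467, 703 and 673 (-1.22 ± 0.32, adjusted p = 0.387). The transactivator Ciita stood at 39.6 CPM against 66.4, 85 and 84.0 (-1.0 ± 0.32, adjusted p = 0.426). None of these 6 genes passed edgeR's adjusted threshold, each lay below all 3 mock libraries, and mock 1 was the nearest mock library in each.

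Of the 12 tested genes of the MHC class II and costimulation list, 8 lay below every mock library and 1 above, with 0 called, where 22.6% of all genes tested lay below and 24.4% above. The list's median log2 fold change was -0.90 and that of all genes -0.02, and 7 of the 12 passed an unadjusted p of 0.05, all lower. Left without mixed and haemoglobin-carrying members, its median was -0.66, and over mock 1 alone -0.60. H2-Ab1 and H2-Eb1 passed in 5 of 19 fits each, among them those without haemoglobin carriers (adjusted p = 0.0208 for both) and without mock 1 (log2 fold changes of -1.27 and -1.42). They did not pass without mock 2 (edgeR adjusted p = 0.382 and 0.407), without mock 3 (0.505 and 0.557), without mixed cells (0.56 for both) or with equal numbers of members (0.714 for both). With a term for Cell Ranger version, which rests the comparison on mock 1, H2-Ab1 and H2-Eb1 passed at -0.97 and -0.98. In this fit and in the one without mock 1, the spread came only from mock 2 and 3, the most alike libraries. Many more genes of all kinds passed in these fits than in the main one, so a pass there says little about MHC class II genes in particular. MHC class I genes, which all nucleated cells carry, did not share the pattern: of 15 tested, 5 lay above and 2 below, at a median of -0.04. H2-K1 stood at 1250 CPM against 1003, 968 and 923, and H2-T23 at 87.8 against 90.1, 321 and 324.

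The promoters of H2-Aa and H2-Eb1, the 2 classical MHC class II genes for which a window was at hand, are printed because their genes stood lower, as did Ciita, which acts on such promoters. None of these genes passed edgeR's adjusted threshold, and whether the level of Ciita had a part in theirs was not tested. The windows of H2-DMb1, H2-DMa and H2-DMb2, not printed, held 0 matches to the X letters, and that of H2-DMb1, which stood lower too, held the Y letters. Each is the 150 bases before the RefSeq start in GRCm38.p6 (mm10), 5′ to 3′ on the strand of the gene: chr17:34287824-34287973, minus strand, for H2-Aa, and chr17:34305717-34305866, plus strand, for H2-Eb1. Capitals mark the letters TNGCAAC, from the X box, and ATTGG, from the Y box, searched on both strands (the reverse of the second reads CCAAT).
H2-Aa: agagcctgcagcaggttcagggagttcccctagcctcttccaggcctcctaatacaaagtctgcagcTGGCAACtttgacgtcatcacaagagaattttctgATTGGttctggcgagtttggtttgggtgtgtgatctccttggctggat
H2-Eb1: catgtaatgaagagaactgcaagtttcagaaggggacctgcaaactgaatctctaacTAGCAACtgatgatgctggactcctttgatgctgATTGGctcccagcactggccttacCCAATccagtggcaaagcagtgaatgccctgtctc
In H2-Aa the X letters lay 83 to 77 bases and the Y letters 48 to 44 bases before the start, and in H2-Eb1 93 to 87 and 59 to 55 bases, with a second Y match 35 to 31 bases before it. Of 32851 RefSeq promoter windows of this length, 5.93% held the X letters, 24.5% the Y letters and 1.58% both. The X letters were chosen with these windows in view, and a match is not evidence of binding.

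Cell by cell, the lower level was not spread evenly. After thinning to 1000 UMIs, which left out 11, 1, 14 and 10 shallower members, the summed UMIs of H2-Aa, H2-Ab1, H2-Eb1 and Cd74 had a median of 28 in ligated members and of 47, 66 and 62 in mock 1, 2 and 3. The lower quartile was 8 in ligated members and 33, 45 and 39 in mock members. With at most 2 UMIs there were 60 of 470 ligated members (12.8%, exact interval 9.88 to 16.1%) and 1 of 50, 0 of 156 and 1 of 197 mock members (2.00, 0 and 0.508%). The 0 of 156 allows a share of up to 1.92% by 3 counts of the total, and its exact interval reaches 2.34%. The limit of 2 was set after the values were seen. Among members with up to 5 other-class UMIs the share was 35 of 326 (10.7%, 7.59 to 14.6%) against 1 of 50, 0 of 147 and 0 of 184, and the medians were 32.5 against 47, 68 and 64. H2-Ab1 alone was found in 73.6% of the thinned ligated members and in 96.0, 100 and 97.5% of the mock ones.

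**Figure D3:**
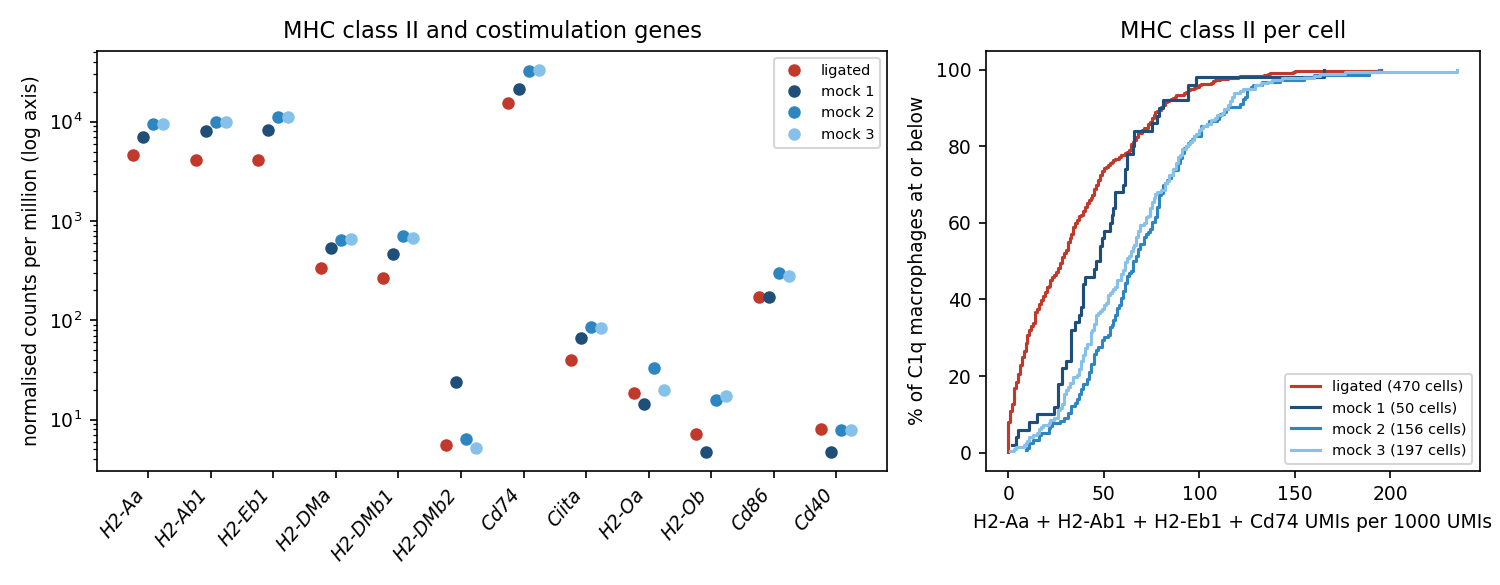
Left, normalised CPM (log axis) of the 12 tested MHC class II and costimulation genes in the C1q macrophages of each library. Right, percent of C1q macrophages at or below each sum of H2-Aa, H2-Ab1, H2-Eb1 and Cd74 UMIs per 1000 UMIs, 1 line per library. The ligated line starts higher and runs left of the mock lines up to a median of 28, against 47, 66 and 62.

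The 35 ligated members with up to 2 MHC class II UMIs and few other-class UMIs were set beside the 291 others of that kind, here in CPM over the summed cells and with no test, since they are cells of 1 library. Their median depth was 6486 UMIs against 6336. C1qa stood at 7689 against 9859, Csf1r at 678 against 792, Cx3cr1 at 887 against 844, and Tmem119 at 331 against 312. Apoe stood at 16421 against 25056 and Ctss at 3972 against 5950, so some macrophage genes were near the level of the other cells and some below it. Ciita had 0 UMIs in the 35 cells and 124 in the 291, and H2-DMb1 stood at 29.3 against 407. Acp5 stood at 678 against 261 and Clec4a1 at 314 against 57.8, so both genes that led the ligated excess (given next) were higher in the MHC class II-low cells. Mmp12, macrophage elastase, stood at 0 against 163, and Trem2 at 151 against 340.

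By the rule for the largest differences, fewer than 5 genes passed in either direction, and the largest at an unadjusted p of 0.05 are given instead, 10 upward and 9 downward; apart from Hbb-bs none passed edgeR's adjusted threshold. Acp5 (mm10 chromosome 9, 22126727 to 22135711), the tartrate-resistant acid phosphatase of osteoclasts and some macrophages, stood at 240 CPM in ligated members and at 9.48, 11.0 and 34.7 in mock 1, 2 and 3. Its log2 fold change was 3.61 ± 0.57 (SE, adjusted p = 0.144). It was found in 19.6% of thinned ligated members and in 2.00, 0 and 1.02% of mock members, against 1.5 to 2.92% of other leukocytes over the 4 libraries. The mock shares were thus near those of other leukocytes, where mock 1 stood at 1.79%, and the ligated share lay above both. DESeq2 called it (adjusted p = 0.00114), and over all alternatives its log2 fold change ran from 3.17 to 4.83. Clec4a1 (chromosome 6, 122921848 to 122934619), a C-type lectin receptor of myeloid cells, stood at 69.7 CPM against 19.0, 3.94 and 4.33 (log2 fold change 3.32 ± 0.63, adjusted p = 0.198) and was found in 8.94% of thinned members against 2.00, 0.641 and 0%. Clec4a1 belongs to a family of similar lectins, so its reads could be shared. Without mixed and haemoglobin-carrying members the log2 fold changes were 3.52 and 3.50.

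The other 8 differences upward were smaller. Ctsd, the lysosomal protease cathepsin D, stood at 774 CPM against 396, 244 and 269 (log2 fold change 1.36 ± 0.31, edgeR adjusted p = 0.338). Ccl2, a chemokine that draws monocytes, stood at 84.6 CPM against 37.9, 26.8 and 26.9. AA467197, the mouse counterpart of NMES1, stood at 118 CPM against 56.9, 31.5 and 31.2, and the linker histone Hist1h1b at 164 against 87.7, 89.7 and 77.1. Mvp, the major vault protein, stood at 57.1 CPM against 37.9, 19.7 and 24.3, and Rilpl2, which binds a Rab GTPase, at 66.7 against 35.6, 29.9 and 27.7. Mybbp1a, a nucleolar protein, stood at 57.7 CPM against 30.8, 33.9 and 20.8, and Os9, a lectin of protein quality control, at 128 against 83.0, 66.9 and 51.1. In each of these 8 genes the ligated value was above all 3 mock values. For most of them this also held in the other cells, outside the members. There Ctsd stood at 503 CPM in the ligated library against 305, 199 and 195 in mock 1, 2 and 3. Ccl2, AA467197, Hist1h1b, Rilpl2 and Os9 also stood above all 3 mock libraries in the other cells, and Mvp and Mybbp1a did not.

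Of the 9 large differences downward that are given, Hbb-bs and Hbb-bt were red cell transcripts. Siglech (chromosome 7, 55768178 to 55778925), a sialic acid-binding lectin of microglia and plasmacytoid dendritic cells, stood at 6.37 CPM against 47.4, 81.9 and 97.9, a log2 fold change of -3.59 ± 0.53 (adjusted p = 0.122). It was found in 5.20% of ligated members before thinning and in 23.5, 34.7 and 30.9% of mock members, although the ligated members were the deepest. After thinning it was found in 1.06% against 0, 8.97 and 10.7%, so the groups overlapped through mock 1. DESeq2 called it (adjusted p = 1.19e-05), as did edgeR without haemoglobin carriers (adjusted p = 0.0315), and without mixed and carrying members its log2 fold change was -3.16. The 6 dendritic cell markers summed to 6.91 CPM in ligated members and 2.17, 17.8 and 28.2 in mock members, with 5 of 6 at 0 in mock 1, and their part in the result was not tested. The other 6 were 4933406I18Rik, Immp2l, Gm33370, Cask, Negr1 and Fat3, and all but Gm33370 have nearly 100 kb of intron or more. They stood far higher in mock 2 and 3 than in mock 1, and mock 1 was itself above the ligated value. Fat3, an atypical cadherin, stood at 18.9 CPM in ligated members and 54.5, 267 and 292 in mock 1, 2 and 3. Gm33370 stood at 4.18 against 19.0, 70.9 and 82.3, and 4933406I18Rik at 2.19 against 2.37, 141 and 122. Surgery and Cell Ranger version cannot be told apart between the ligated library and mock 2 and 3, and with the version as a term their log2 fold changes ran from -2.16 to -0.11, against -5.38 to -3.46 without it.

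**Figure D4:**
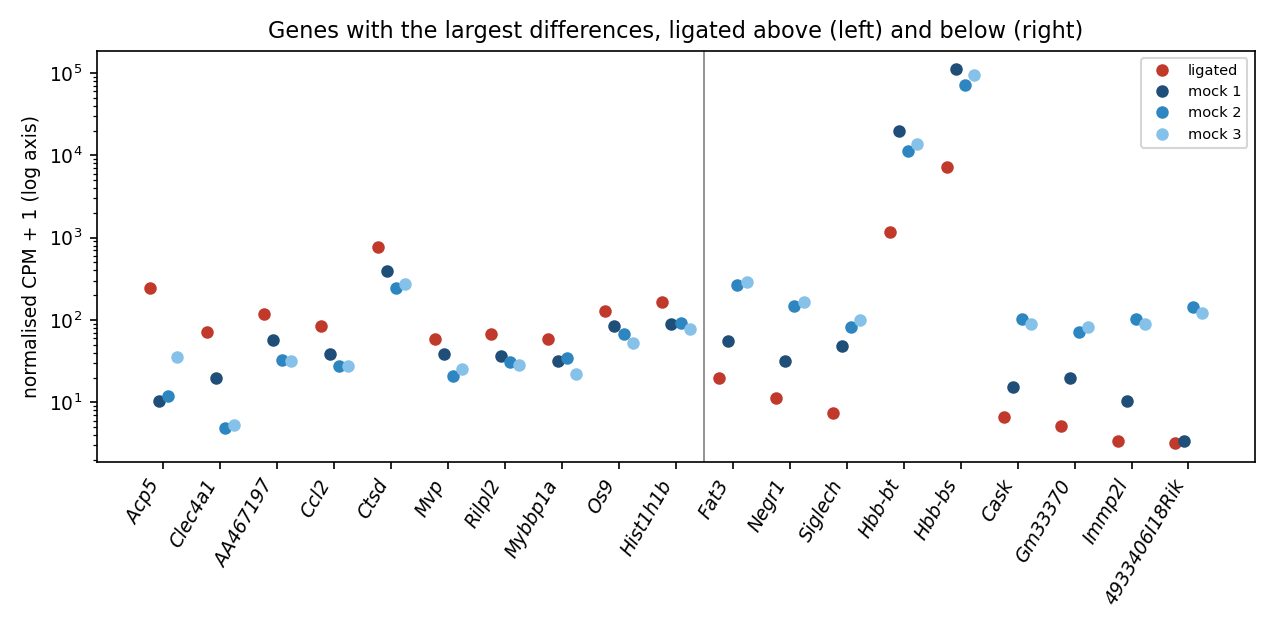
Normalised CPM + 1 (log axis) of the 10 genes with the largest difference upward (left of the line) and 9 downward (right) in the C1q macrophages of each library, red for ligated and blue for mock. Acp5 and Clec4a1 show the widest gaps upward, and in genes such as 4933406I18Rik (2.19 against 2.37 in mock 1) the ligated point lies near mock 1 and far below mock 2 and 3.

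The gene lists put these genes among their pathways, in each case beside the 24.4% of all genes above and the 22.6% below every mock library. No member of any list passed edgeR's adjusted test. Of the 15 tested microglia-like genes, 3 lay above and 7 below, at a median of -0.32. P2ry12, a purine receptor, stood at 23.3 CPM against 26.1, 94.5 and 109, and Tgfbr1, a receptor subunit for TGF-beta, at 408 against 604, 1188 and 1100. Fcrls, a receptor-like protein, stood at 208 CPM against 171, 33.1 and 39.9, so mock 1 was near the ligated value in Fcrls and P2ry12. Sparc, a matrix protein made by microglia and abundantly by fibroblasts, stood at 332 CPM against 16.6, 47.2 and 56.3, and at 2263 in the other ligated cells. It was still at a log2 fold change of 2.59 without mixed and carrying members, where fibroblast markers stood at 109 CPM. Of 22 tested macrophage core genes, 8 lay above and 4 below, at a median of 0.06, among them Cd14, the lipopolysaccharide coreceptor, at 208 CPM against 344, 316 and 312 and Trem2 at 233 against 284, 316 and 336.

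In the list of Lyve1 and Folr2 resident macrophages, 11 of 21 genes passed the filter on low counts, of which 4 lay above and 3 below. Igf1, a growth factor, stood at 53.3 CPM against 19.0, 9.45 and 13, and at 82.9 in the other ligated cells. F13a1, a clotting factor subunit, stood at 0.597 CPM against 40.3, 7.09 and 4.33. Of 25 lysosomal genes, 11 lay above and 7 below, at a median of 0.08. Ctsl, cathepsin L, stood at 185 CPM against 119, 101 and 107, beside Ctsd. Of 24 lipid-associated macrophage genes, 10 lay above and 6 below, at a median of 0.07. Cd36, a fatty acid and scavenger receptor, stood at 83.8 CPM against 187, 376 and 306. Spp1, osteopontin, stood at 151 CPM against 26.1, 74.8 and 65.8 and at 591 in the other ligated cells, and without mixed and carrying members its log2 fold change was -0.45 in place of 1.38. The list thus had members on both sides of the mock range.

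Among receptors for opsonised targets, 3 of 6 Fc receptors lay below and 1 above, at a median of -0.17. Fcgr2b, the inhibitory receptor for IgG, stood at 35.2 CPM against 87.7, 79.5 and 87.5 (log2 fold change -1.26 ± 0.30, edgeR adjusted p = 0.345), and Fcgr4, an activating one, at 67.9 against 114, 92.9 and 101. In both the 3 mock libraries were close together and the ligated value was lower. Of 18 efferocytosis and scavenger genes, 4 lay above and 6 below, at a median of -0.19. Mfge8, which bridges dying cells to phagocytes, stood at 39.8 CPM against 21.3, 19.7 and 12.1, and at 218 in the other ligated cells. Elmo1, an engulfment adaptor with 505 kb of intron, stood at 101 CPM against 137, 512 and 427. Of 15 complement genes other than C1q, 10 lay above and 0 below, at a median of 0.81. The largest differences were Serping1, the C1 inhibitor, at 62.1 CPM against 0, 2.36 and 8.66, and C1s1, a C1 protease, at 21.3 against 2.37, 0.787 and 2.60. Next came Cfb, complement factor B, at 9.36 CPM against 0, 2.36 and 0, and C3 at 22.3 against 7.11, 1.57 and 1.73. All 4 stood higher in the other ligated cells, at 282, 101, 38.8 and 87.9 CPM. Without mixed and carrying members they did not pass the filter on low counts, as did 7 of the 15 genes in all, and the median of the remaining 8 was 0.42.

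Of 28 transcription factors, 6 lay above and 9 below, at a median of 0.01. Mitf, a regulator of lysosome genes with 208 kb of intron, stood at 13.1 CPM against 28.4, 93.7 and 110. Pparg, a nuclear receptor of lipid metabolism, stood at 8.76 CPM against 21.3, 26.0 and 32.1, and Klf2, which restrains inflammatory genes, at 136 against 73.5, 28.3 and 26.9. Of 17 genes of the Csf1r axis and growth factor receptors, 5 lay above and 8 below, at a median of -0.16. Csf2ra, a receptor subunit for GM-CSF, stood at 168 CPM against 360, 268 and 242, and the interleukin 10 receptor subunit Il10ra at 58.1 against 102, 209 and 178. Csf1r itself, which the gate asked for, had 678 CPM without the TMM factor against 700, 580 and 567.

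Of 21 chemokines and receptors, 4 lay above and 9 below, at a median of -0.45. Ccr1, a receptor for CC chemokines, stood at 9.75 CPM against 26.1, 52.7 and 73.6, and Ccr2, the receptor for Ccl2, at 22.3 against 178, 38.6 and 23.4. Cxcl14 stood at 324 CPM against 56.9, 76.4 and 104, and at 1207 in the other ligated cells, and its log2 fold change of 2.01 was 0.59 without mixed and carrying members. Of 17 inflammatory cytokine and NF-kB genes, 1 lay above and 6 below, at a median of -0.35. Cd83, a maturation marker, stood at 49.6 CPM against 75.8, 150 and 162, and Tnf at 68.9 against 83.0, 119 and 119. The 1 gene above was Il1rn, at 12.1 CPM against 0, 7.87 and 6.07. Il1b was found in 16.2% of thinned ligated members against 8, 7.05 and 7.61% in mock 1, 2 and 3. Of 31 interferon-stimulated genes, 6 lay above and 12 below, at a median of -0.19. The guanylate-binding proteins went both ways, with Gbp5 at 4.58 CPM against 14.2, 11.8 and 15.6 and Gbp7 at 29.7 against 7.11, 12.6 and 15.6, while Irgm1, an interferon-induced GTPase, stood at 14.3 against 19.0, 43.3 and 35.5.

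Of 18 glycolysis and hypoxia genes, 8 lay above and 1 below, at a median of 0.17. Eno1, the glycolytic enolase, stood at 110 CPM against 66.4, 62.2 and 58.9, and the lactate exporter Slc16a3 at 24.3 against 16.6, 12.6 and 9.53. The 1 gene below was Bpgm, at 27.3 CPM against 277, 159 and 184, which came with the haemoglobin carriers. Of 13 iron and haem genes, 6 lay above and 2 below, at a median of 0.25, with Cp, the iron oxidase ceruloplasmin, at 29.3 CPM against 2.37, 5.51 and 6.07 and at 65.8 in the other ligated cells. Of 20 immediate early and heat shock genes, 7 lay above and 0 below, at a median of 0.49 and of -0.06 over mock 1 alone. Jun stood at 818 CPM against 697, 339 and 319 and the chaperone Hspa8 at 1179 against 894, 599 and 613, with mock 1 nearest the ligated library in both. Of 20 cell cycle genes, 6 lay above and 3 below, at a median of 0.26, and Top2a, a topoisomerase of dividing cells, stood at 91.6 CPM against 71.1, 72.4 and 45.9. The remaining lists were checkpoint and lymphocyte partners (0 above and 4 below of 13), growth factors and matrix remodelling (4 and 5 of 21), glucocorticoid-responsive genes (1 and 4 of 10) and monocyte genes (5 and 3 of 11).

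**Figure D5:**
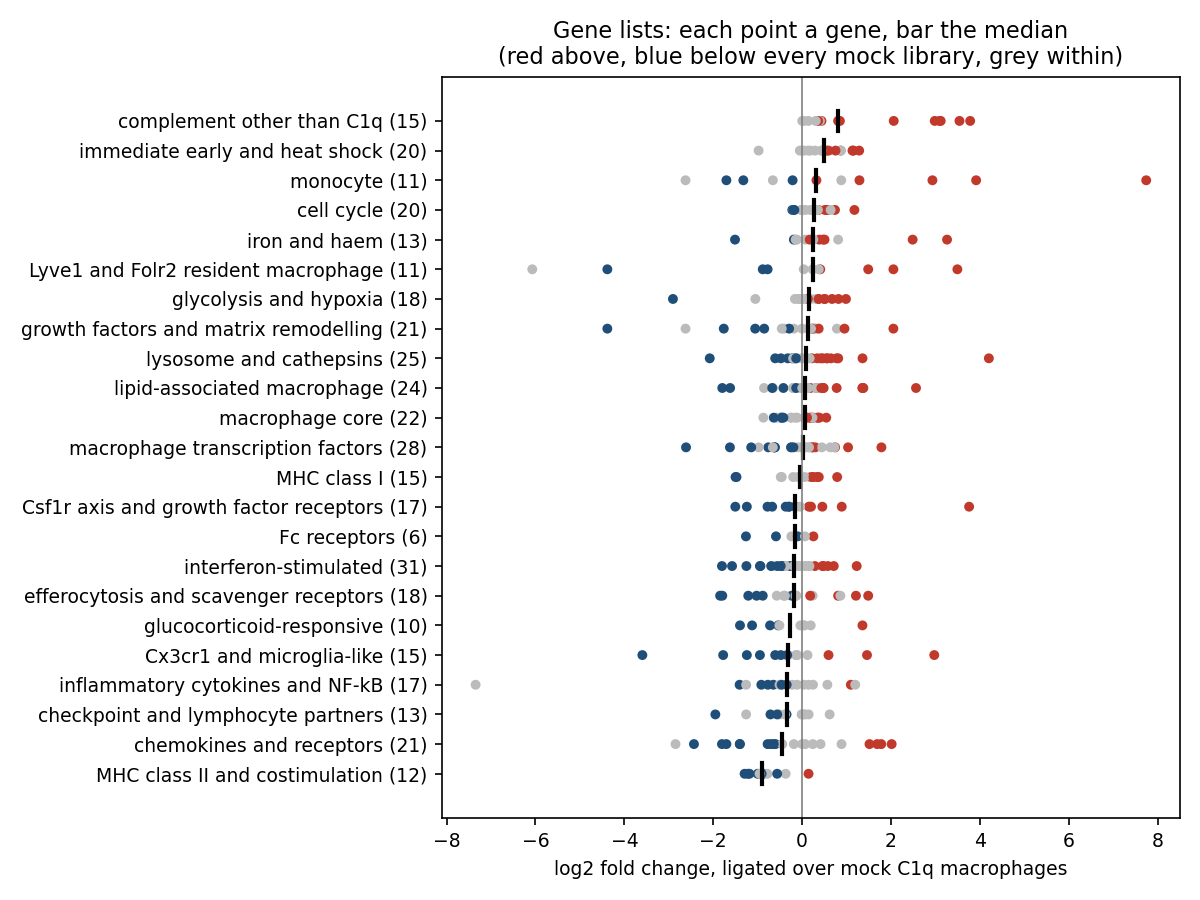
Log2 fold change of ligated over mock C1q macrophages (horizontal axis) for each tested gene of 23 lists, with the number tested in brackets, ordered by the list's median (black bar). Red points lie above and blue points below all 3 mock libraries, and grey points within their range. The MHC class II list has the lowest median, -0.90, and complement other than C1q the highest, 0.81.

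Whether a difference was the same in other cells of the same libraries was tested with a class by surgery term in edgeR. Against all other leukocytes, 259 of 13978 genes (1.85%) passed at an adjusted p of 0.05, 110 with the larger ligated-to-mock difference in the C1q macrophages. Acp5 was one, with a difference between the differences of 2.66 on the log2 scale (adjusted p = 0.0005), and Clec4a1 another, with 2.50 (adjusted p = 0.00775). Hbb-bs, at -1.69 (adjusted p = 0.000775), H2-Eb1, at -1.40 (adjusted p = 0.000143), and H2-Ab1, at -1.20 (adjusted p = 0.00328), passed in the other direction, and Siglech did not pass. Other ligated leukocytes held macrophage transcripts more often than mock ones (6.43% for C1qa, above), and their part in these terms was not tested. The kinds of other leukocytes also differed in number between the libraries.

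Against the cells that passed the other limits of the gate, Csf1r among them, but held at most 1 C1q UMI, 90 of 9903 genes (0.909%) passed, 70 of them upward. The mock side of this comparison rests on 9, 4 and 14 cells, and 1 UMI is a large value there. MHC class II genes passed here with the opposite sign. H2-Ab1 stood at 21.5 CPM in the ligated cells without C1q and 1486, 2048 and 3315 in those of mock 1, 2 and 3, a wider gap than in the members, and its term was 5.47 (adjusted p = 7.5e-07). The term was 4.66 for H2-Eb1 (adjusted p = 1.37e-05), 5.16 for H2-Aa, 4.83 for Cd74 and 6.02 for H2-DMb1. Ligated Csf1r cells without C1q thus also held less MHC class II RNA than the few mock ones, but the 2 groups differed in other genes too. The matrix genes Sparc and Bgn stood at 4415 and 2284 CPM in the ligated ones, against 549, 0 and 176 and 250, 0 and 211 in the mock ones. Ctss stood at 95.6 CPM against 848, 564 and 767. Whether they are the same kind of cell was not tested, and the terms may set unlike cells side by side. Clec4a1 kept its sign, with a term of 5.35 (adjusted p = 8.77e-05), and Acp5 did not pass. Among genes with at least 50 CPM in the members, the largest terms upward were for Mmp12 (9.83, adjusted p = 7.5e-07), at 158 CPM in ligated members and 0 in ligated Csf1r cells without C1q, against 0, 250.8 and 117 in the mock ones, and for Pkib, Cd86, Havcr2 and Fcrls. The largest downward were for Crisp3, Creb5, Snx24, Spp1 and Bpgm, where Creb5 and Snx24 have 388 and 143 kb of intron. Spp1 (-5.48, adjusted p = 8.15e-05) stood at 800 CPM in the ligated Csf1r cells without C1q and 191 in the ligated members, against 16.1, 0 and 0 and 32.3, 96.4 and 84.6 in the mock libraries.

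Clustered among themselves (Leiden method, without the genes of the gate and the erythroid markers), the members formed 9 groups, and the largest split by library. A group of 216 cells held 1 ligated cell, 0 of mock 1, 104 of mock 2 and 111 of mock 3, and was led by long-intron genes such as Frmpd4 and Hdac9. Groups of 182 and 166 cells held 169 and 142 ligated and 13 and 24 mock 1 cells, and 0 of mock 2 and 3. The first was led by Cxcl2, Fos and Dusp1 and the second by Retnla, Fn1 and Lyz1, with Clec4a1 and Acp5 in its 10 leading genes. Retnla was found in 1 ligated and 1 mock 1 member in all, and Fn1 in 3.33 and 1.96% of them, so these 2 leaders rest on few cells. A shallow group of 120 cells, at a median of 1569.5 UMIs, held 0 ligated cells and was led by the acinar secretions Dcpp1, Dcpp2 and Dcpp3 and by haemoglobin. A group of 93 cells led by the interferon-stimulated Ifit3 and Isg15 with Ctsd held 78 ligated and 5, 2 and 8 mock cells. Dividing cells, led by Top2a and Mki67, formed a group of 49 with 31 ligated and 3, 8 and 7 mock cells, so every library held some. The last 3 groups were led by genes of other classes: 39 led by Gzmc and Xcl1 of NK cells (34 ligated), 22 led by Mgp and Dcn of fibroblasts (21 ligated) and 22 led by Rgs5 and Acta2 of mural cells (5 ligated and 0, 8 and 9 mock). More than 5 other-class UMIs were found in 100% of the cells of the first pair and in 63.6% of the last. Shares of these groups are not compared, since library and group cannot be told apart in the largest of them.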

How the data were processed

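The deposited values are counts: raw UMI counts per gene and cell barcode in 1 sparse matrix per library, after the authors' own calling of cells. Per the submitters' processing notes they come from Cell Ranger 7.0.1 and mm10, while the file headers name 6.0.1 (ligated, mock 1) and 7.0.0 (mock 2, mock 3). On intron counting, the answer is not given in the sources used. Genes were joined by ID over the 30406 IDs common to all libraries. Cells needed at least 500 UMIs, 300 genes and at most 15% mitochondrial UMIs.

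UMIs were summed per library over the members and tested in edgeR 4.0.16 under R 4.3.3 (TMM factors, filterByExpr, quasi-likelihood test) with Benjamini-Hochberg adjustment at 0.05 over all genes tested (2 residual degrees of freedom). SE is the log2 fold change divided by the square root of F. DESeq2 1.42.0 was an alternative. Class by surgery terms had a term for each library. Shares have exact 95% binomial intervals. For shares of cells with a gene, cells were thinned to 1000 UMIs. CPM over mock 1 had 10 CPM added. Clusters came from scanpy 1.11.5 and leidenalg 0.10.2 (1000 variable genes, 20 components, 15 neighbours, resolution 0.8), and doublets were called with Scrublet in scanpy but not removed. The edgeR step was tested on simulated data. Intron lengths and gene positions come from GENCODE vM21 (GRCm38), with a length for 9511 of the 9516 genes tested.

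Genes are named by a rule: the 6 markers; in each list those with the largest differences outside the mock range; the 10 largest differences in each direction at an unadjusted p of 0.05, with at least 50 CPM in the members of the higher group and no less than in other cells, since fewer than 5 passed (1 downward is not reported here); and, by the same limits on CPM, the 5 largest terms in each direction against Csf1r cells without C1q. H2-Aa and the genes named in single cells, clusters and haemoglobin carriers were chosen after their values were seen. The members and lists were chosen with earlier results of these data known.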

Additional observations from a re-analysis of the deposited data

Results flagged for a closer look

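In these genes the ligated-to-mock difference was not the same in C1q macrophages as in other cells, by edgeR's class by surgery term (log2, negative where the difference was lower in C1q macrophages). Against other leukocytes the term was -1.78 for Ms4a7, -1.29 for Cx3cr1, -0.96 for Ctss, -2.24 for Cd14 and -1.68 for Trem2. In the ligated members Ms4a7 stood above every mock library, Ctss within their range and Cx3cr1, Cd14 and Trem2 below it. The gate genes C1qa, C1qb and C1qc, which were not tested, had terms of -1.62, -1.59 and -1.62. C1qa stood at 223 CPM in the other ligated leukocytes and at 52.8, 62.1 and 75.6 in those of mock 1, 2 and 3. A negative term can thus come from higher levels in the other ligated leukocytes, and their part was not tested. For MHC class II genes the term was -1.40 (H2-Eb1), -1.20 (H2-Ab1), -1.30 (H2-Aa) and -1.15 (Cd74), and for red cell transcripts -1.69 (Hbb-bs), -1.93 (Hbb-bt) and -3.27 (Bpgm). It was positive for Acp5 (2.66), Clec4a1 (2.50), AA467197 (1.38), Bgn (2.86) and Klf2 (1.68). It was negative for Ccl2 (-2.41), Spp1 (-1.99), Mmp12 (-2.27) and Cd86 (-1.25). Of these, Ccl2 and Spp1 stood above every mock library in the ligated members, Mmp12 lay within the mock range and Cd86 below it. The term was also negative for the long-intron genes Mitf (-1.91), Creb5 (-2.32), Snx24 (-2.35), Cask (-2.42), Negr1 (-2.36) and Fat3 (-2.17).

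Against Csf1r cells without C1q the term was 9.83 for Mmp12, 7.88 for Pkib, 7.44 for Cd86, 7.35 for Havcr2 and 7.21 for Fcrls. It was -10.20 for Crisp3, -9.63 and -8.90 for the long-intron genes Creb5 and Snx24, -5.48 for Spp1 and -5.35 for Bpgm. It was 4.66 for H2-Eb1, 5.47 for H2-Ab1, 5.16 for H2-Aa, 4.83 for Cd74 and 6.02 for H2-DMb1, and 2.77 for Ctss, 5.35 for Clec4a1, 7.16 for Fcgr4 and 2.91 for Klf2. H2-Eb1, H2-Ab1, H2-Aa, Cd74, Ctss, Mmp12 and Cd86 had terms of opposite sign against the 2 kinds of other cells.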

How the results depend on the processing

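The number of genes passing edgeR's adjusted test, 2, was 2 with relative log expression factors and 3 without the tenth of members with most UMIs. It was 305 with no filter on low counts, 53 by DESeq2, 33 with the limit at 4 C1q UMIs and 29 at 16, and 140 after thinning. It was 226 with a term for Cell Ranger version, 13 with mock 2 and mock 3 summed and 25 without haemoglobin carriers. It was 1 without mixed cells, without marker and mitochondrial genes, or without mixed and carrying cells, and 0 without Scrublet calls or with equal numbers of members. Leaving out 1 mock library gave 0 to 2691. Against Csf1r cells without C1q, 90 genes became 104 with relative log expression factors and 88 with no filter, and 8 to 126 with 1 mock library left out. Against other leukocytes, 259 became 221 to 910. The difference in the share of C1q macrophages among all cells, 2.09 percentage points, was 0.598 among cells with Ptprc and 1.88 to 2.24 with 1 mock library left out. It was 3.22 among cells with at least 1000 UMIs, thinned to 1000, under a changed gate. That gate asked for at least 2 C1q UMIs and set no limit on Csf1r. The MHC class II-low difference of 11.9 points was 10.1 without mixed cells. Of 77 named genes, 73 kept their direction in each fit that tested them. Ctss turned to 0.0701 without mixed cells, 0.0314 with the version term and 0.067 without mixed and carrying cells, Spp1 to -0.13, -0.19 with equal numbers and -0.45, and Mmp12 to -0.17 and Pkib to 0.22 with the version term. The cause was not tested. No paired analysis was possible because the ligated group has 1 library and so shares only 1 replicate number with the mock group. Leaving out haemoglobin carriers, leaving out mixed and carrying cells together, and the comparison with all other leukocytes were chosen after seeing the data. Depth limits the mock side, with 51 members in mock 1.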
